A study of Mus musculus with 2 samples.

Results

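The genes described here are the nuclear-encoded parts of the mitochondrial oxidative phosphorylation system in double-negative 1 (DN1) preparations of the embryonic mouse thymus. Members were taken by symbol, as rows that start with Nduf, Uqcr, Atp5 or Cox4 to Cox8, plus Sdha, Sdhb, Sdhc, Sdhd and Cycs, with at least 20 unique molecular identifiers (UMIs, 1 per captured RNA molecule) in the table. The rule matched 94 of 22032 rows, and 91 of them passed the minimum, which 12653 rows of the table passed. Cox7b2, Cox8b and Cox8c, subunit isoforms known from testis or heart and muscle, stood at 0 UMIs. The 13 protein-coding rows of the mitochondrial genome (mt- rows) are given beside them.

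Fluorescence-sorted DN1 preparations came from thymus of the strain named 5x polychromILC, and droplet-based 3' single-cell libraries were made from day E15.5 and day E19.5 embryos, 1 library each. The reporter alleles of this strain, among them reporters of Id2, Gata3, Rora and Bcl11b, are shared by both stages, and the labels name no treatment. The protocol label describes a lysis that yields nuclei, so whole cells and nuclei cannot be told apart here, and the units are called barcodes. The pooled table holds 2 sets of barcodes, suffix 1 and suffix 2, and 0 of its columns are tied to a stage, so no stage comparison was made.

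After filters, 5412 of 6057 barcodes were kept, 2137 of suffix 1 (median 14841 UMIs) and 3275 of suffix 2 (median 13688 UMIs). Barcodes were grouped by raw UMIs of gene pairs, with at least 1 UMI of both genes, and those in more than 1 group were left out. The progenitor gate (Spi1 and Bcl11a, transcription factors of early progenitors) held 790 barcodes, 243 of suffix 1 and 547 of suffix 2. The ILC2 gate (Icos and Rora, for type 2 innate lymphoid cells) held 1380, 252 and 1128. The NK/ILC1 gate (Xcl1 and Nkg7, of natural killer cells and type 1 innate lymphoid cells) held 1140, 682 and 458, and the DN2/DN3 gate (Cd3g and Myb, for T-committed thymocytes) held 320, 115 and 205. These gates kept 63.3%, 80.5%, 67.3% and 30.2% of the barcodes that passed each pair. Median depth was 30653.5, 11846.5, 10822 and 19245.5 UMIs in this order.

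Other markers of the gated types were highest in their own gate for 6 of 6 progenitor, 5 of 6 ILC2, 7 of 7 NK/ILC1 and 9 of 9 DN2/DN3 genes. The exception was Ccr8. The DN2/DN3 gate was mixed: it held the NK/ILC1 marker Gzma at 2228 and 1469 CPM (UMIs scaled to the group total) in suffix 1 and 2. In suffix 2 it also held Cd8a at 119 CPM, with Cd4, Cd8a and Cd8b1 all at 0 in suffix 1. The ILC2 gate was mixed in suffix 1, where the 7 NK/ILC1 markers summed to 595 CPM and the 6 ILC2 markers to 422. In ILC2 barcodes of suffix 2 these sums were 68.3 and 705 CPM. Genes of other lineages were also present in the progenitor gate, the reference of 3 comparisons. The 5 erythroid genes summed to 636 CPM there over both suffixes, against 127 in ILC2, 151 in NK/ILC1 and 306 in DN2/DN3 barcodes. The 5 myeloid genes summed to 218 CPM, against 1.86, 16.5 and 23.2, with Csf1r at 0 in ILC2 and Elane at 0 in DN2/DN3 barcodes. The 3 mast cell genes summed to 241 CPM, against 5.63, 57.3 and 324. All 3 lists were lowest in ILC2 barcodes over both suffixes and within suffix 1. Within suffix 2, erythroid genes summed to 161 CPM in ILC2, 148 in DN2/DN3 and 13.1 in NK/ILC1 barcodes. Myeloid genes summed to 2.11 CPM in ILC2 and 1.26 in NK/ILC1 barcodes there, and only the mast cell list stayed lowest in ILC2. Keratin UMIs (Krt8 or Krt18, epithelial genes) were present in 68 of 243 progenitor, 28 of 252 ILC2, 183 of 682 NK/ILC1 and 23 of 115 DN2/DN3 barcodes of suffix 1. In suffix 2 it was 107 of 547, 29 of 1128, 3 of 458 and 14 of 205. Of the barcode sequences, 25 occurred under both suffixes.

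Levels are given as CPM, the UMIs of a gene scaled to the total UMIs of a group of barcodes. Each captured 3' end counts once, so no scaling by gene length is needed. The design has no replicates, so no test was run, and 95% intervals in parentheses cover counting error only. The interval of a list's median is an order-statistic interval of that median and treats the genes as independent. It is not the range of the members, many of which lie outside it. Ratios are log2 of the 2 levels, 1.5-fold is the size called higher or lower, and the share of all rows beyond it is given as the background. Where values of a gene are said to lie apart, they are summed levels, 1 per gate and suffix. The share of all rows that lie apart in this way is not given. Scaling by trimmed mean of M-values (TMM) or median of ratios, in place of UMI totals, moved all ratios of a comparison together. The shift reached 0.11 for ILC2 over progenitor, 0.23 for NK/ILC1 over progenitor and -0.10 for suffix 2 over suffix 1, so each list is read beside the median of all rows.

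Oxidative phosphorylation passes electrons from NADH (complex I) and succinate (complex II) through ubiquinone, complex III and cytochrome c to oxygen at complex IV. Complexes I, III and IV pump protons across the inner mitochondrial membrane, and complex V, the ATP synthase, uses the gradient to make ATP. The mitochondrial genome encodes core subunits of every complex but complex II, and nuclear genes encode the rest and all assembly factors. Lymphocytes are known to shift between oxidative phosphorylation and glycolysis as they proliferate and differentiate.

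Members ranged from 0.455 CPM (Ndufa4l2) to 988 (Cox4i1) over all kept barcodes, with a median of 244, and 77 members reached 50. The 10 most abundant members held 28.1% of the members' UMIs. In complex I, whose 36 subunit members summed to 8062 CPM in the progenitor gate, Ndufa13, Ndufb7 and Ndufb11, all accessory subunits, led. The other leaders were Sdhb, Sdhd and Sdha in complex II, Uqcrh, Uqcrq and Uqcrb in complex III, and Cox4i1, Cox8a and Ndufa4 in complex IV. Atp5g2, which encodes the c subunit of the ATP synthase rotor, Atp5b (the catalytic beta subunit) and Atp5e led complex V. Levels were close to each other across gates for most members, with a median ratio of highest to lowest gate of 1.35. The 7 members that differed by more than 2-fold were Cox4i2, Cox6b2, Cox6a2 and Cox7a1, alternative isoforms of complex IV subunits, Ndufaf2 and Ndufaf6, complex I assembly factors, and Cycs, cytochrome c.

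**Figure D1:**
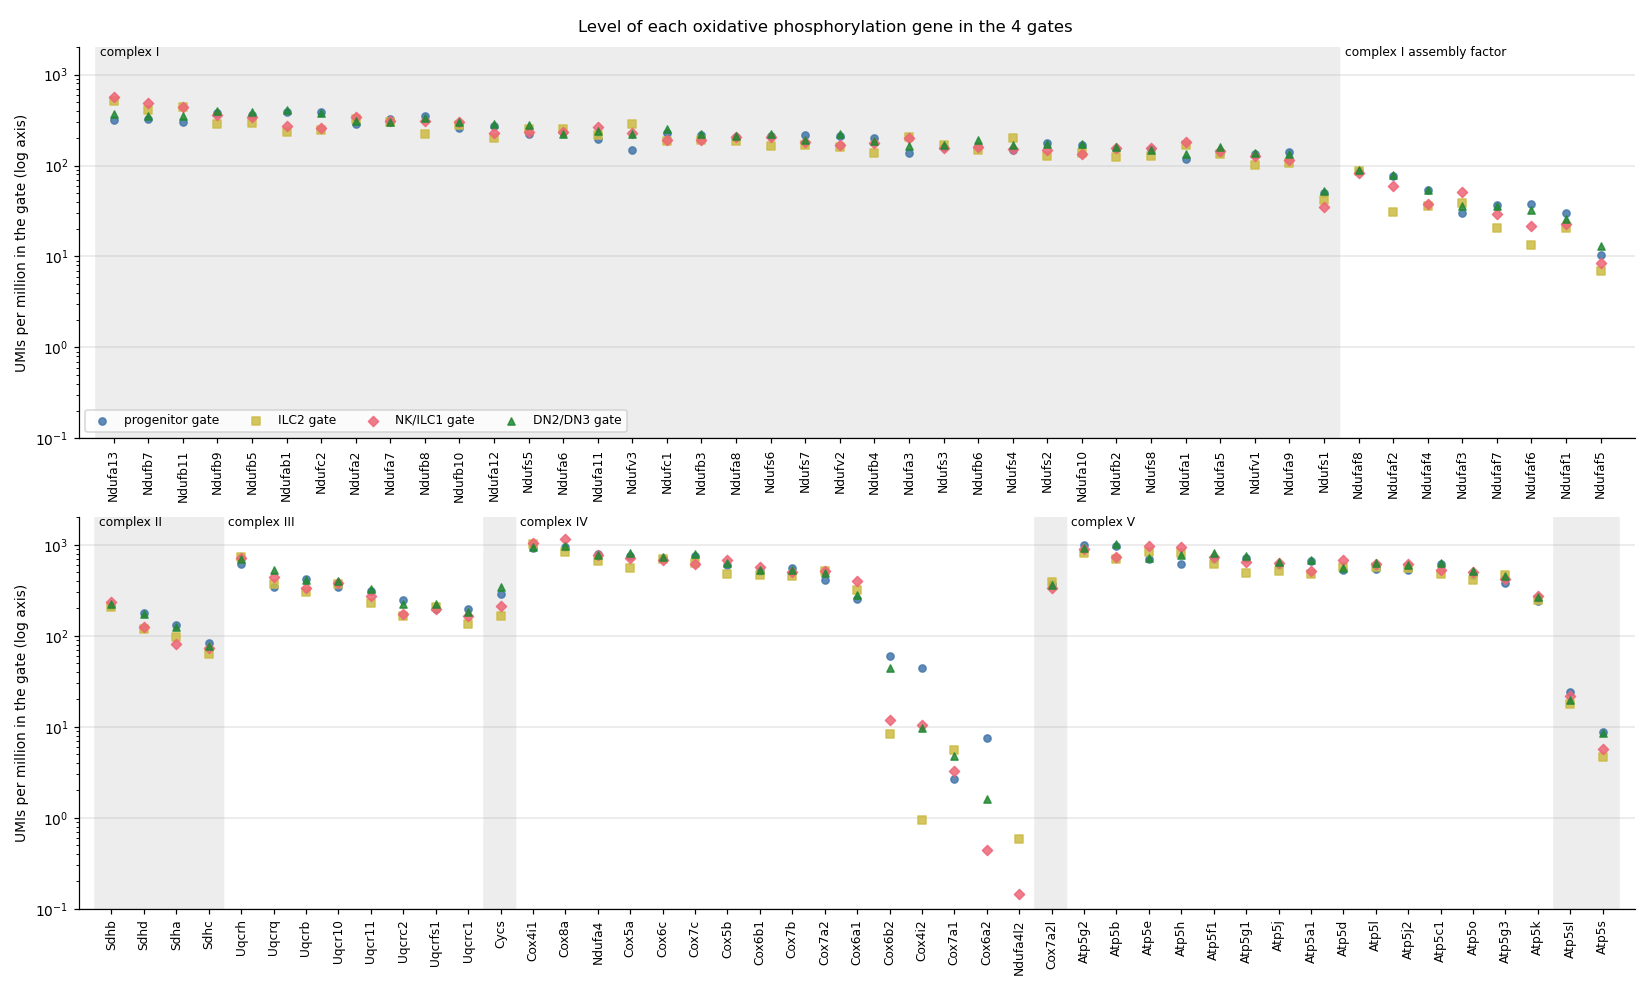
Level of each of the 91 members in the 4 gates, as CPM of the gate (log axis), grouped by complex; the small grey bands hold Cycs, Cox7a2l, and Atp5sl and Atp5s. Markers of a gene lie close together for most members and spread for Cox6b2, Cox4i2 and Cox6a2; Ndufa4l2 has no marker in the progenitor and DN2/DN3 gates, where its count was 0.

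The members took 2.90% of UMIs in the progenitor gate (2.90 to 2.91), 2.68% in the ILC2 gate (2.68 to 2.69), 2.98% in the NK/ILC1 gate and 3.08% in the DN2/DN3 gate. Within each gate the share was lower in suffix 2. It was 3.01% and 2.85% in progenitor barcodes of suffix 1 and 2, 2.97% and 2.60% in ILC2, 3.22% and 2.64% in NK/ILC1, and 3.14% and 3.04% in DN2/DN3. The mt- rows took 3.01%, 3.49%, 2.81% and 2.92% of UMIs in the 4 gates, so the ILC2 gate was lowest for the nuclear genes and highest for the mitochondrial ones. Members had 0.965 UMIs per mt- UMI in the progenitor gate, 0.770 in ILC2, 1.06 in NK/ILC1 and 1.06 in DN2/DN3. In ILC2 barcodes of suffix 1 this ratio was 0.965 against 1.03 in progenitors, and in suffix 2 it was 0.722 against 0.937.

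Between single barcodes the share varied more than between gates. Quartiles of the share per barcode were 2.59% and 3.10% in the progenitor gate, 2.30% and 2.89% in ILC2, 2.55% and 3.53% in NK/ILC1, and 2.61% and 3.26% in DN2/DN3. The widest pair was that of NK/ILC1 barcodes of suffix 1, 2.75% and 3.74%. Thinning each barcode to 6974 UMIs, which left out 540 barcodes, gave medians of 197, 179, 199 and 206.5 member UMIs in the 4 gates. The ILC2 median was lowest, as it was unthinned (2.84%, 2.58%, 2.85% and 2.99% in this order). Thinning leaves the expected share of a barcode unchanged, so it cannot show whether the shares depend on depth.

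**Figure D2:**
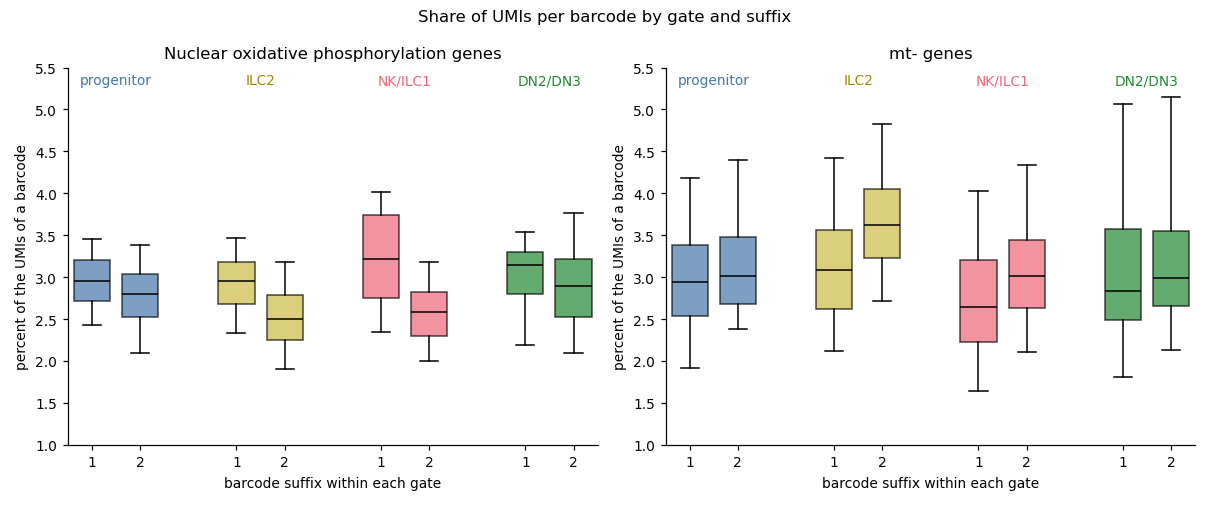
Share of a barcode's UMIs, in percent, that fell on the nuclear oxidative phosphorylation genes (left) and on the mt- rows (right), by gate and suffix. Boxes span the quartiles with the median as a line, whiskers the 5th to 95th percentile; suffix 2 boxes sit lower on the left in every gate, with medians from 2.50% to 2.90% against 2.95% to 3.22% in suffix 1.

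The first comparison set the ILC2 gate against the progenitor gate. Members were lower in ILC2 barcodes on the whole, with a median log2 ratio of -0.25 (-0.33 to -0.13, 90 members), against -0.11 for all 11690 rows. It was -0.09 within suffix 1 and -0.28 within suffix 2, with all rows at -0.05 and -0.14. Of the 90 members, 54 were below 0 in both suffixes and 30 above 0 in both, counts given without a joint share of all rows. Within suffix 1, 55 members and 5462 of 10316 rows were below 0. Within suffix 2 it was 59 members and 6445 of 11347 rows. At 1.5-fold, 14 members were lower (28.0% of all rows were) and 3 were higher (21.7% of all rows were), both below the background share. Within suffix 1 there were 10 lower and 6 higher members (22.7% and 21.0% of all rows), and within suffix 2 there were 15 and 3 (29.2% and 21.1%).

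Complex I assembly factors had a median of -0.61 over 8 members, below the medians of complexes I to V. Of these 8, 5 were lower by 1.5-fold (28.0% of all rows were). Ndufaf2, which helps build the complex I electron-input arm, had 91.7 and 70.8 CPM in progenitor barcodes of suffix 1 and 2, and 39.5 and 28.2 in ILC2 barcodes. Both ILC2 values lay below both progenitor values, and the log2 ratio was -1.33 (-1.47 to -1.19). Ndufaf6 had 45.6 and 33.8 against 17.8 and 12.2 (log2 ratio -1.48, -1.68 to -1.27). Ndufaf7, a methyltransferase of complex I assembly, had a log2 ratio of -0.86, whereas Ndufaf3 had 0.37.

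Of the 36 complex I subunits, 23 were lower and 13 higher in the ILC2 gate (median -0.21). The 7 core subunits had a median of -0.36 and the 29 accessory subunits one of -0.13. Ndufv3, an accessory subunit next to the NADH-binding site, went the other way, with 138 and 150 CPM in progenitor barcodes of suffix 1 and 2 and 274 and 291 in ILC2 barcodes. Both ILC2 values lay above both progenitor values, and the log2 ratio was 0.97 (0.91 to 1.03). Ndufa13 followed with 0.68 (0.64 to 0.72), Ndufa3 with 0.56 and Ndufb11 with 0.55. Exons of these last 3 overlap a gene on the other strand (Tssk6, Tfpt and Rbm10), and how strand was used in counting is not given in the sources used here. Ndufab1, the mitochondrial acyl carrier protein, had a ratio of -0.70, and its exons overlap Gm44986 on the other strand.

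All 4 succinate dehydrogenase subunits (complex II) were below 0 over both suffixes, from Sdhd at -0.61 (-0.68 to -0.53) to Sdhb at -0.03. Sdhb lay above 0 with TMM or median-of-ratios scaling. Within suffix 1 it was at 0.21, and the other 3 subunits were below 0. In complex III, 4 of 8 members were lower, with Uqcrc2, a core protein, at -0.56 and Uqcrh, the hinge protein, at 0.25. Cycs, the electron carrier between complexes III and IV and a trigger of apoptosis when released, had 362 and 252 CPM in progenitor barcodes of suffix 1 and 2. ILC2 barcodes had 204 and 152, below both progenitor values, a log2 ratio of -0.81 (-0.87 to -0.75). Complex IV had a median of -0.25 over 15 members and complex V one of -0.17 over 15. Within complex V, Atp5g1 stood at -0.56 and Atp5b at -0.51, and Atp5h, a stalk subunit, at 0.41. No complex III or V member passed 1.5-fold.

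**Figure D3:**
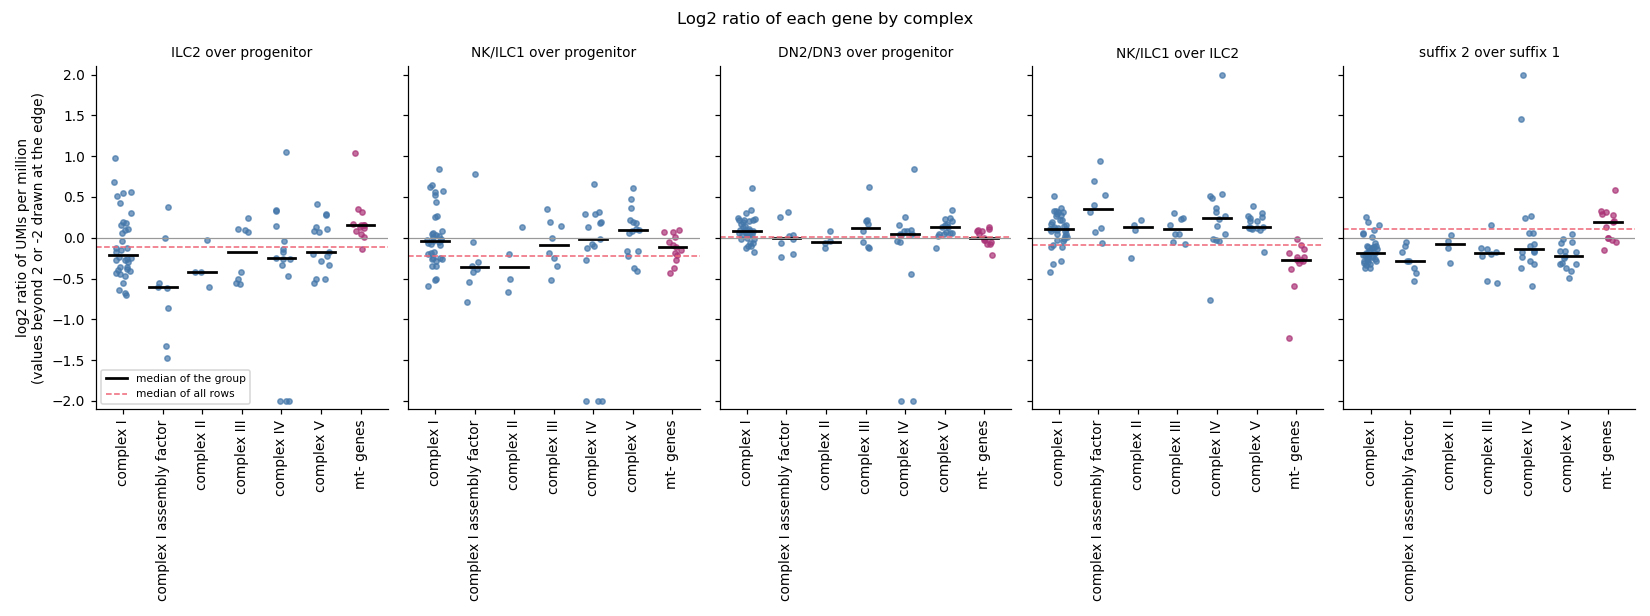
Log2 ratio of each member (blue) and mt- row (purple) by complex in the 5 comparisons; black bars are medians, the dashed line is the median of all rows tested, and values beyond 2 or -2 are drawn at the edge. In ILC2 over progenitor, assembly factors have a median of -0.61 and mt- rows one of 0.15.

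In the NK/ILC1 gate over the progenitor gate the members had a median log2 ratio of -0.06 (-0.17 to 0.02), against -0.23 for all rows. The sign of this median depends on scaling, as it was 0.16 with TMM and 0.17 with median-of-ratios scaling. Of 90 members, 7 were 1.5-fold lower (32.0% of all rows) and 6 higher (17.4% of all rows). Within suffix 1 the median was -0.01 against -0.28 for all rows, with 8 lower and 11 higher members (33.8% and 14.6% of all rows). Within suffix 2 it was -0.18 against -0.16 for all rows, with 16 lower and 3 higher (30.9% and 21.3%). The members' median thus lay above that of all rows in suffix 1 but not in suffix 2. Ndufa13 was 0.84 above the progenitor gate (0.80 to 0.89), with 583 and 555 CPM against 315 and 321. Cox6a1, the ubiquitous form of the complex IV subunit 6A, stood at 0.66, Ndufv3 at 0.64, Ndufa1 at 0.62 and Atp5h at 0.61. Ndufaf3, which overlaps Impdh2 on the other strand, was at 0.77. Sdha, the flavoprotein that oxidises succinate, had 131 and 130 CPM in progenitors and 84.99 and 77.02 in NK/ILC1 barcodes, a log2 ratio of -0.67 (-0.77 to -0.57). Without barcodes that held keratin UMIs, its ratio was -0.57, short of 1.5-fold. Ndufc2 and Ndufaf4 followed at -0.59 and -0.54.

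The DN2/DN3 gate over the progenitor gate had a median of 0.07 (0.04 to 0.09) against 0.01 for all rows, and -0.0046 when mt- and ribosomal protein rows were left out of the scaling. Only 2 of 90 members, Cox4i2 and Cox6a2, were 1.5-fold lower (12.9% of all rows), and Cox7a1, Ndufv3 and Uqcrq were higher (11.8% of all rows). Within suffix 1 it was 2 lower and 1 higher (10.2% and 8.05% of all rows), and within suffix 2 it was 2 and 3 (15.2% and 14.4%). Uqcrq, a small complex III subunit, had 550 and 522 CPM in DN2/DN3 barcodes and 409 and 320 in progenitors (log2 ratio 0.62, 0.57 to 0.68). The 15 complex V members had a median of 0.13, with 14 above 0 and Atp5g2 at -0.12. Cycs was at 0.26 (0.20 to 0.33). By level, 36 of the 91 members were highest in this gate, as were 25.8% of all rows with at least 20 UMIs over the gates and 29.7% of those that reached 50 CPM in any gate. The ILC2 gate was lowest for 53 members, and for 27.2% and 32.7% of these rows. Within suffix 2 alone, 35 members were lowest in the NK/ILC1 gate and 33 in the ILC2 gate, against 33.3% and 25.5% of rows with at least 20 UMIs.

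Between the innate gates, NK/ILC1 over ILC2, the median was 0.14 (0.11 to 0.22, 89 members) against -0.09 for all rows. It was 0.11 within suffix 1 and 0.01 within suffix 2, and 0.04 within suffix 1 without barcodes that held keratin UMIs. All rows of known coding length were split at the median length into shorter and longer ones. Their medians were -0.06 and -0.39 within suffix 1, and 0.01 and -0.03 within suffix 2. The members' median was thus near that of all rows in suffix 2. Cox4i2, Ndufaf2 and Ndufaf6 were 1.5-fold higher (11.8% of all rows) and Cox7a1 lower (18.4% of all rows), whereas none passed it in both suffixes. Within suffix 1, 3 were higher and 0 lower (8.09% and 23.9% of all rows), and within suffix 2, 0 and 3 (14.0% and 16.1%). Cox8a, a complex IV subunit, had 1259 and 1043 CPM in NK/ILC1 barcodes of suffix 1 and 2 and 1014 and 789 in ILC2 barcodes. Its log2 ratio was 0.48 (0.45 to 0.51), and every NK/ILC1 value lay above every ILC2 value. Ndufs4, an accessory subunit whose loss is known to cause mitochondrial disease, stood at -0.41, and Ndufv3 at -0.33.

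Suffix 2 over suffix 1 gave a median of -0.18 (-0.22 to -0.12, 91 members) while all rows had 0.10. Here 73 members were below 0 and 18 above. Past 1.5-fold were 1 lower, Cox4i2 (6.14% of all rows), and 2 higher, Cox6a2 and Ndufa4l2 (16.4% of all rows). The median was below 0 within each gate, at -0.08 in progenitor, -0.20 in ILC2, -0.30 in NK/ILC1 and -0.07 in DN2/DN3 barcodes. Past 1.5-fold in progenitor barcodes were 0 lower and 1 higher (4.73% and 8.66% of all rows), and in ILC2 barcodes 1 and 2 (14.9% and 14.4%). In NK/ILC1 barcodes it was 11 of 89 lower, near the background, and 0 higher (13.0% and 28.2%), Atp5b and Atp5g1 of complex V and Uqcrc1 of complex III among the lower. In DN2/DN3 barcodes 5 were lower and 1 higher (9.36% and 15.9%). In all 4 gates at once 46 of 88 members were below 0 and 3 were above, counts given without a share of all rows. Those 3 were Ndufa1, Ndufa6 and Cox7a2l, a factor that joins complexes III and IV into supercomplexes. Cox7a2l had 286, 275, 298 and 299 CPM in suffix 1 of the progenitor, ILC2, NK/ILC1 and DN2/DN3 gates, and 402, 424, 383 and 413 in suffix 2. Each suffix 2 value lay above each suffix 1 value, and the log2 ratio over all barcodes was 0.50 (0.47 to 0.53). Cycs (-0.57), Uqcrc1 (-0.56), Ndufaf2 (-0.53) and Uqcrq (-0.53) were the lowest of the members that reached 50 CPM.

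Other transcripts moved with suffix too. The 8 cycling genes, none at 0, summed to 1475, 2154, 1734 and 1555 CPM in suffix 1 of the progenitor, ILC2, NK/ILC1 and DN2/DN3 gates and to 1141, 1285, 1147 and 2086 in suffix 2. They were lower in suffix 2 in each gate but DN2/DN3. The 6 epithelial genes summed to between 40.3 and 118 in suffix 1 and between 11.3 and 44.1 in suffix 2, with Psmb11 at 0 in all gates of suffix 2 and in the progenitor and DN2/DN3 gates of suffix 1. Without barcodes that held keratin UMIs, the NK/ILC1 median of suffix 2 over suffix 1 was -0.22. The part of cycling in the result was not tested.

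The clearest differences between gates were in isoforms that replace a usual complex IV subunit in particular tissues. Cox4i2 (chr2:152754173-152765037, GRCm38), a lung-enriched form of subunit 4 linked to oxygen sensing, had 57.5 and 38.6 CPM in progenitor barcodes of suffix 1 and 2. It had 0.963 and 0.954 in ILC2 barcodes, 17.3 and 0.18 in NK/ILC1 barcodes, and 16.8 and 4.48 in DN2/DN3 barcodes. Both progenitor values exceeded those of the other gates. Over both suffixes it was 46.4-fold lower in the ILC2 than in the progenitor gate (log2 ratio -5.53, -6.29 to -4.87) and 4.29-fold lower in NK/ILC1. The value in NK/ILC1 barcodes of suffix 2 rests on 1 UMI (log2 ratio to progenitors -7.75, -13.05 to -5.26). Its usual counterpart Cox4i1 had 924 and 930 CPM in progenitors and between 900 and 1150 in the other gates.

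Cox6b2 (chr7:4751792-4753094), a form of subunit 6B known from testis, had 53.4 and 63.2 CPM in progenitor and 46.5 and 42.9 in DN2/DN3 barcodes. ILC2 barcodes had 8.19 and 8.25, and NK/ILC1 barcodes 18.2 and 2.88. Progenitor and DN2/DN3 values lay above all ILC2 and NK/ILC1 values, with a log2 ratio of ILC2 over progenitor of -2.87 (-3.12 to -2.63). Cox6b1, the ubiquitous form, stayed between 464 and 616 in all groups. Cox6a2, the heart and muscle form of subunit 6A, whose exons overlap Itgad on the other strand, had 4.19 and 9.07 in progenitors. ILC2 barcodes held 0 UMIs of it in suffix 1, where 3 counts would be 0.723 CPM, and 1 UMI in suffix 2. Cox7a1, the heart and muscle form of subunit 7A, ran in another order, from 2.49 and 2.79 in progenitors to 3.85 and 6.07 in ILC2 barcodes. Ndufa4l2, a hypoxia-induced relative of Ndufa4, had 11 UMIs in the ILC2 gate, 2 in NK/ILC1 and 0 in the others, in 56 UMIs of the table.

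**Figure D4:**
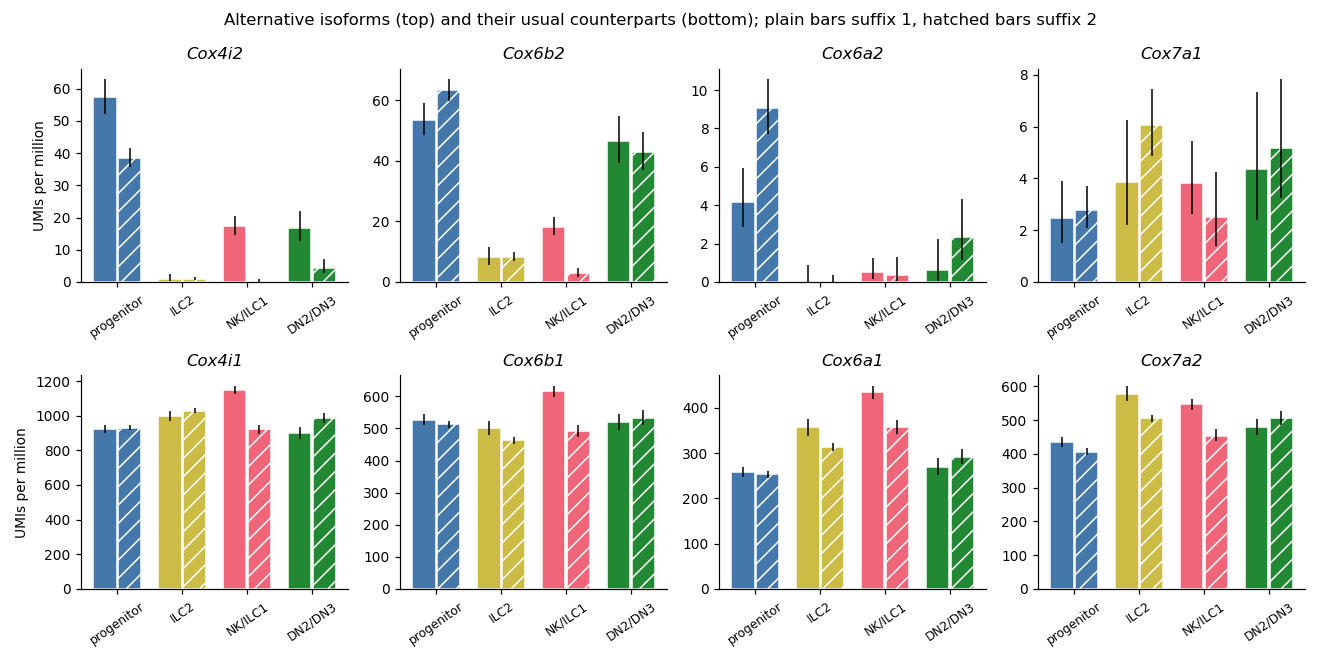
CPM of 4 alternative complex IV isoforms (top) and their usual counterparts (bottom) in each gate, with plain bars for suffix 1 and hatched bars for suffix 2; error bars are 95% counting intervals. Cox4i2 and Cox6b2 stand at 38.6 or more in both progenitor bars and at 8.25 or less in both ILC2 bars, while Cox4i1 stays between 900 and 1150.

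Depth differed between the gates, so barcodes were also thinned to 6974 UMIs. Cox4i2 was then found in 22.3% of progenitor barcodes, 0.307% of ILC2, 5.62% of NK/ILC1 and 3.68% of DN2/DN3 barcodes; unthinned shares were 57.2%, 0.942%, 9.47% and 13.8%. Thinned shares of Cox6b2 were 35.8%, 4.75%, 7.13% and 17.6%, and unthinned 76.5%, 9.06%, 11.4% and 44.4%. The order of the gates at equal depth was that of the levels for Cox6b2, while NK/ILC1 and DN2/DN3 were near each other for Cox4i2. In the progenitor gate, Cox6b2 was found in 78.5% of barcodes with Cox4i2 and in 73.7% of those without it, shares close to each other. NK/ILC1 barcodes of suffix 1 also held the progenitor gene Spi1 at 35.9 CPM, against 2.88 in suffix 2. Without keratin-holding barcodes, Cox4i2 there was 11.5 and Cox6b2 10.6 CPM. Myeloid genes, like Cox4i2, summed highest in the progenitor gate and lowest in the ILC2 gate over both suffixes, and erythroid genes summed highest in the progenitor gate. The part of progenitor RNA or of these lineages in these values was not tested.

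The pair Cox6b2 and Cox6b1, and the pair of Cox6a1 and Cycs, whose ratios ran in opposite directions in ILC2 barcodes, are shown by the 250 bases before their RefSeq start. The windows were searched for the core of the NRF1 (nuclear respiratory factor) consensus, CCGGAAG (ETS family) and a YY1 consensus on both strands, and matches are in capitals. These factors are known regulators of respiratory chain genes. Sequences are from RefSeq on GRCm38.p6, minus strand, 5' to 3'. The windows lie at chr7:30626115-30626364 (Cox6b1), chr7:4753095-4753344 (Cox6b2), chr5:115348959-115349208 (Cox6a1) and chr6:50566570-50566819 (Cycs).
Cox6b1: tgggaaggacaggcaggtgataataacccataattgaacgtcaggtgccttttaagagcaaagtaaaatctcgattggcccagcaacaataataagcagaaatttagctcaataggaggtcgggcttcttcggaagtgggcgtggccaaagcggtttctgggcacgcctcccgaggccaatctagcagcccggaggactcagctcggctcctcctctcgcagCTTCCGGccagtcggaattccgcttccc
Cox6b2: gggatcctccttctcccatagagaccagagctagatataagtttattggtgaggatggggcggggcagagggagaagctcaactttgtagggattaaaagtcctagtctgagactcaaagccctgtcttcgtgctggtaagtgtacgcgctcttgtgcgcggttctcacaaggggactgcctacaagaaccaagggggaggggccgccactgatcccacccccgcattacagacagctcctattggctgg
Cox6a1: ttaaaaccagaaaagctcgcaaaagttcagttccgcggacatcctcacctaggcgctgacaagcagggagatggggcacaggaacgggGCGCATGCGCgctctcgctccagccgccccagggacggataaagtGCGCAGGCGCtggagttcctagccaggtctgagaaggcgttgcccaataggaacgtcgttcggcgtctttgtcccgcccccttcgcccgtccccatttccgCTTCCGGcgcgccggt
Cycs: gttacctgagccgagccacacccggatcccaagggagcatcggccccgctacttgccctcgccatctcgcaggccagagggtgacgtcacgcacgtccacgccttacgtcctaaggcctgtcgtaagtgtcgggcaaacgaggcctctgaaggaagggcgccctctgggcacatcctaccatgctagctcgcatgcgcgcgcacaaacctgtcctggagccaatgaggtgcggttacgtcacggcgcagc
Cox6b1 holds 1 ETS match, 28 to 22 bases before the start and read on the opposite strand. Cox6a1 holds NRF1 matches at 162 to 153 and 117 to 108 bases and an ETS match at 16 to 10 bases before the start. Cox6b2 and Cycs hold no exact match in the window. The Cycs window holds tcgcatgcgc, which departs from the NRF1 letters in its first base only. Near matches were not searched, so a window without capitals can still hold a variant site.

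Of the 91 members, 73 had a promoter window in the RefSeq table. NRF1 letters were in 14 of the 73 (19.2%), against 4.23% of 27025 genes, ETS letters in 14 (19.2% against 7.83%) and YY1 letters in 1, Atp5j (1.37% against 0.359%). At least 1 of the motifs was in 34.2% of member windows and 11.6% of all. Members with the NRF1 letters had a median log2 ratio of -0.20 in ILC2 over progenitor and those without one of -0.18, so the ratios were near each other. In suffix 2 over suffix 1 both medians were -0.18.

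The mt- rows had a median log2 ratio of 0.15 (0.05 to 0.32) in ILC2 over progenitor, with 12 of 13 above 0. Thus the medians of the mitochondrial and nuclear parts of the system lay on opposite sides of 0. Within suffix 1 they were closer, at 0.07 (-0.0001 to 0.22) for mt- rows and -0.09 for members. Within suffix 2 they were 0.16 and -0.28. The summed UMIs of the members had a log2 ratio of -0.02 in suffix 1 and -0.13 in suffix 2. mt-Nd6, the one protein gene on the light strand, had 33.0 and 24.6 CPM in progenitors of suffix 1 and 2 and 44.1 and 58.9 in ILC2 barcodes. It was higher in ILC2 barcodes of both suffixes (log2 ratio 1.04, 0.90 to 1.18). Its exon overlaps the more abundant mt-Nd5 on the other strand, and how strand was used in counting is not given. mt-Atp6, a complex V subunit and the most abundant mt- row, stood at 0.35, mt-Co3 at 0.32 and mt-Co1, the catalytic complex IV subunit, at 0.16. Within suffix 1, mt-Co1 was at -0.10. In NK/ILC1 over ILC2 all 13 mt- rows were below 0 (median -0.27), except that mt-Nd3 lay above 0 with TMM scaling and mt-Nd2 and mt-Nd3 with median-of-ratios scaling. Within suffix 2 it was 8 of 13. Suffix 2 over suffix 1 had a median of 0.20, led by mt-Co1 at 0.58. Barcodes over 10% mt- UMIs had been removed, and without that limit the members' medians kept their sign in all 5 comparisons.

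Across members, ratios were related to coding length, the longest coding sequence of a gene in GENCODE M21. For 85 members other than the alternative isoforms, Spearman's rho of the ILC2 over progenitor ratio with coding length was -0.37, and -0.33 and -0.35 within suffix 1 and 2. Over all rows it was 0.02. Members of at most the median coding length of 438 bases had a median ratio of -0.04, and longer ones -0.38. In NK/ILC1 over progenitor rho was -0.41 (all rows -0.12), with medians of 0.06 and -0.23. DN2/DN3 over progenitor had -0.28 (all rows -0.03). In NK/ILC1 over ILC2 rho was 0.05 over both suffixes (all rows -0.23). Within suffix 1 and 2 it was -0.18 and -0.14 (all rows -0.31 and -0.04). Suffix 2 over suffix 1 had -0.35, while all rows had 0.25. These are correlations across genes of the same libraries, which share depth and are not independent, and no p is given. Long members here include Sdha, Ndufs1 and Uqcrc1, and short ones Uqcrq and Ndufa1.

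**Figure D5:**
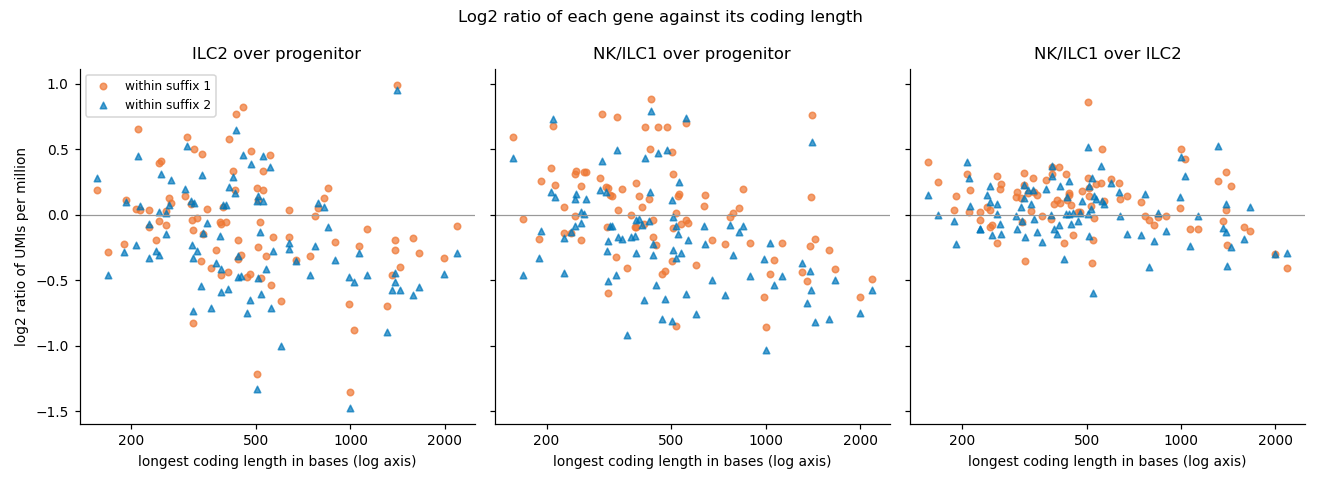
Log2 ratio of each member against its longest coding length in bases (log axis), within suffix 1 (circles) and suffix 2 (triangles), alternative isoforms left out. In both left panels short genes lie higher than long ones, with rho of -0.37 and -0.41 over both suffixes, and in the right panel rho was 0.05.

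Within gates, the members' share of a barcode's UMIs was related to the mt- share and, in most groups more strongly, to depth. Within suffix 1, Spearman's rho with the mt- share was -0.25 over 243 progenitor barcodes, -0.10 over 252 ILC2, -0.070 over 682 NK/ILC1 and -0.27 over 115 DN2/DN3 barcodes. Within suffix 2 it was -0.37, -0.22, -0.29 and -0.16 over 547, 1128, 458 and 205 barcodes. It was below 0 in each group but near 0 in NK/ILC1 barcodes of suffix 1. The same barcodes had a rho of 0.77 with the share of ribosomal protein UMIs, against -0.36 in suffix 2. With the depth of a barcode, rho was 0.52 in progenitor, 0.33 in ILC2, -0.10 in NK/ILC1 and 0.51 in DN2/DN3 barcodes of suffix 1. For suffix 2 it was 0.59, 0.53, 0.38 and 0.37. Median depth differed between the gates, and the part of depth in their shares was not tested. All shares come from the same UMI total of a barcode, so they are tied to each other, and these values are descriptions only.

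Other mitochondrial lists, chosen by known function, were read in the same way. In ILC2 over progenitor, carriers and import genes had a median of -0.67 (-0.86 to -0.44, 18 genes), with 9 lower and 0 higher by 1.5-fold (28.0% and 21.7% of all rows). Hspd1, the matrix chaperonin, was lowest of them at -1.62, with 801 CPM in progenitors and 260 in ILC2 barcodes. The tricarboxylic acid cycle list had -0.48, with 4 of 13 lower, near the 28.0% of all rows, Suclg2 at -1.11 and Mdh2 at -0.58. Mitochondrial ribosomal proteins had -0.46, with 26 of 77 lower and 1 higher (28.0% and 21.7% of all rows), and assembly genes of complexes III and IV -0.09, with 4 of 25 lower (28.0% of all rows). Glycolysis genes had a median of 0.25 (-0.36 to 0.89), with 10 of 16 above 0, 5 of them past 1.5-fold (21.7% of all rows), and 6 below, 2 of them past it. Within suffix 1 the median was 0.063, with 8 above and 8 below. Pfkp, a phosphofructokinase, stood at 3.42, Ldha at 0.72, and Slc2a3, a glucose transporter, at -1.60.

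Regulators of mitochondrial gene expression had a median of -0.36 (-0.85 to 0.08, 17 genes) in ILC2 over progenitor, 6 lower and 2 higher (28.0% and 21.7% of all rows). Tfam, which packages mitochondrial DNA and starts its transcription, had 82.8 CPM in the progenitor gate and 59.9 in ILC2. Tefm, the mitochondrial transcription elongation factor, was lowest at -1.59 and Polg, the mitochondrial DNA polymerase, highest at 1.34. The transcript of the factor Nrf1 stood at 29.5 and 31.8. In DN2/DN3 over progenitor the medians of the mitochondrial lists and glycolysis lay between -0.02 and 0.17 (glycolysis). In suffix 2 over suffix 1, carriers and import had -0.32, mitochondrial ribosomal proteins -0.26 and the tricarboxylic acid cycle -0.20, while cytosolic ribosomal proteins had 0.16.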

How the data were processed

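The authors deposited 1 table of raw UMI counts (22032 genes by 6057 barcodes, 103262860 UMIs), with both libraries pooled. Per the submitters' processing notes, Cell Ranger 3.0.2, STAR and GRCm38 were used; how strand was handled is not given in the sources used here. Barcodes with at least 500 genes and at most 10% mt- UMIs were kept, and Scrublet (scanpy 1.11.5, seed 0), run per suffix, removed 103 doublets, 0.466% of suffix 1 and 2.76% of suffix 2. Counts were summed per gate and suffix and divided by total UMIs (Python 3.11.15, numpy 2.4.6, scipy 1.17.1; TMM from edgeR 4.0.16). Ratios were computed for rows with at least 20 UMIs in the groups compared, with 0 set to 3 counts. Intervals are 95% exact Poisson, conditional or Clopper-Pearson intervals, and order-statistic intervals for medians. PCR copies are collapsed by UMI. On Poisson counts simulated for ILC2 over progenitor (11611 rows), intervals held the true ratio for 95.6% of rows. The intervals assume such counts, so this checks the computation only and not variation between barcodes or libraries. Named members are the most abundant and lowest, the 4 highest and lowest ratios of each comparison at 50 CPM or more, and the isoforms; others named were chosen after their values were seen. The members and lists were chosen with earlier results of these data known. Alternatives covered filters, gates, depth, scaling, keratin-holding barcodes and suffix.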

Additional observations from a re-analysis of the deposited data

Results flagged for a closer look

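Ratios of NK/ILC1 over ILC2 barcodes lay on opposite sides of 0 in the 2 suffixes for a list and a member, and in each case the difference between suffixes was not tested. The median log2 ratio of cytosolic ribosomal proteins was 0.15 in suffix 1 and -0.27 in suffix 2. The log2 ratio of Cox6b2 was 1.15 (0.60 to 1.73) in suffix 1 and -1.52 (-2.37 to -0.76) in suffix 2. Keratin UMIs were held by 183 of 682 NK/ILC1 and 28 of 252 ILC2 barcodes of suffix 1, and the 6 epithelial genes summed to 61.2 and 118 CPM there. In suffix 2 it was 3 of 458 and 29 of 1128 barcodes, and 44.1 and 31.9 CPM. Their part in these values was not tested.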

How the results depend on the processing

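No paired analysis was possible because no column of the table is tied to a sample and each stage has 1 library. Of the alternatives for each members' median, 15 of 16 stayed within its interval for ILC2 over progenitor, 14 of 17 for NK/ILC1 over progenitor, 14 of 17 for DN2/DN3 over progenitor, 13 of 17 for NK/ILC1 over ILC2 and 9 of 17 for suffix 2 over suffix 1. ILC2 over progenitor was -0.089 within suffix 1. NK/ILC1 over progenitor was -0.18 within suffix 2, 0.16 with TMM and 0.17 with median-of-ratios scaling. DN2/DN3 over progenitor was 0.10 with at least 2 UMIs of each gate gene and 0.013 by mean levels per barcode, and it reversed to -0.0046 with scaling without mt- and ribosomal protein rows. NK/ILC1 over ILC2 was 0.0096 within suffix 2, 0.22 with median-of-ratios scaling, 0.065 without mt- and ribosomal protein rows, and 0.045 within suffix 1 without keratin-holding barcodes, an alternative chosen after seeing the data. Suffix 2 over suffix 1 was -0.26 thinned, -0.26 by mean levels per barcode, -0.26 with TMM, -0.28 with median-of-ratios scaling and -0.11 without mt- and ribosomal protein rows. Within the progenitor, NK/ILC1 and DN2/DN3 gates it was -0.076, -0.30 and -0.069. The cause was not tested. Counts of members past 1.5-fold ranged from 2 to 6 higher and 9 to 16 lower for ILC2 over progenitor, from 1 to 12 and 3 to 16 for NK/ILC1 over progenitor, from 0 to 4 and 0 to 3 for DN2/DN3 over progenitor, from 0 to 7 and 0 to 3 for NK/ILC1 over ILC2, and from 0 to 2 and 0 to 11 for suffix 2 over suffix 1. Of 668 alternatives for single members past 1.5-fold, 81 fell short of it and 0 changed direction. Depth limits Cox6a2, Cox7a1 and Ndufa4l2, which rest on few UMIs.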

Other observations

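Barcodes outside the gates gave further values for the members. The 35 barcodes of suffix 1 that failed the filters had 0.893% of their UMIs on members and 54.5% on mt- rows, and the 507 of suffix 2 had 1.20% and 27.6%. Barcodes in no gate had 2.87% on members in suffix 1 (237 barcodes) and 2.67% in suffix 2 (556 barcodes). Those in more than 1 gate had 3.24% (608 barcodes) and 2.89% (381 barcodes). In each of the last 2 kinds suffix 2 was lower.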
